A study of Drosophila melanogaster with 4 samples.

Results

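The oxidation resistance of miRNA isoforms was compared between 30-day-old and 3-day-old fly heads, inside each miRNA arm. An arm is one side of a miRNA hairpin, and an isoform is one exact read sequence of that arm. Each isoform's share of its arm's reads was taken in every library, the oxidized share was divided by the not oxidized share at each age, and the log2 ratio at 3 d was subtracted from that at 30 d. This difference, called the age change here, is above 0 where an isoform was over-represented by oxidation more at 30 d, and 1 unit is 2-fold. Arms with 100 or more reads in each library and isoforms with 20 or more reads in each were used. They comprised 528 of 5550 distinct sequences and 106 of 485 arms, and held 99.3% to 99.5% of each library's reads. Since every value is relative to its own arm, a change in the level of a whole arm does not enter it.

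The groups were 30 d oxidized, 30 d not oxidized, 3 d oxidized and 3 d not oxidized, with 1 library each. All came from heads of wild-type males of genotype 5905 raised at 25 °C, and the oxidized libraries had undergone oxidation with β-elimination as RNA. The libraries held 12105527, 17345816, 2091252 and 16112748 reads in that order, an 8.29-fold range with the 3 d oxidized library the smallest. Ages follow the titles and descriptions, which a separate age field contradicts for the 3 d oxidized and the 30 d not oxidized library. With 1 library per group there is no replicate check and no p-value. The differences are between these libraries, and the 95% intervals cover counting error only. The labels do not say how many heads were pooled. The neuronal miR-124-3p stood at 224, 1070, 461 and 1074 RPM (reads scaled to the library's total) in the same order, and the muscle miRNA miR-1-3p at 3.22, 11.0, 5.26 and 20.6 RPM. In whole heads, a change within cells and a change in which cells contribute reads cannot be told apart.

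As background, a fly miRNA duplex is mostly loaded into the Argonaute protein AGO1, and a part of the strands enters AGO2. The methyltransferase Hen1 adds a methyl group to the 2′ hydroxyl of the last ribose of AGO2-bound RNAs. Periodate attacks a 3′ end with free hydroxyls and β-elimination then blocks its ligation, so methylated ends are over-represented after treatment. Many fly miRNAs also occur with several 3′ ends, and the exonuclease Nibbler shortens AGO1-bound miRNAs such as miR-34-5p after loading.

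The first sequences shown are the 3′ isoforms of miR-34-5p, a brain miRNA linked to ageing in flies, and of the let-7 complex, a cluster expressed from metamorphosis into adulthood. They are shown because isoforms of one arm, differing only in where the 3′ end falls, moved in different directions or by different amounts. Letters are as read in the files, 5′ to 3′, and capitals mark the seed (bases 2 to 8), which is the same for all isoforms with one 5′ end. The mir-34 hairpin gene lies on chromosome 3R from 10100936 to 10101034, in an exon of lncRNA:CR43459. The mir-125 and mir-let7 hairpins lie on 2L from 18472315 to 18472424 and from 18472034 to 18472111, in exons of lncRNA:let7C (BDGP6 annotation, matched by gene name).
miR-34-5p 16 nt: tGGCAGTGtggttagc
miR-34-5p 18 nt: tGGCAGTGtggttagctg
miR-34-5p 21 nt: tGGCAGTGtggttagctggtt
miR-34-5p 23 nt: tGGCAGTGtggttagctggttgt
miR-125-5p 21 nt: tCCCTGAGaccctaacttgtg
miR-125-5p 22 nt: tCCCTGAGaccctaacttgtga
miR-125-5p 24 nt: tCCCTGAGaccctaacttgtgact
let-7-5p 19 nt: tGAGGTAGtaggttgtata
let-7-5p 22 nt: tGAGGTAGtaggttgtatagta

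The second group holds isoforms described in the results for a high or low age change, other ends of the same arms for comparison, and short isoforms that end in C. It is shown so that the position of each 3′ end can be compared with its values. The mir-317 hairpin lies on 3R from 10091126 to 10091217, mir-9a on 3L from 19565131 to 19565208 in an exon of lncRNA:CR45916, mir-998 on 3R from 21621879 to 21622021 in an intron of E2f1, and mir-219 on 3L from 17315006 to 17315105. miR-13b-3p can come from mir-13b-1 on 3R or from mir-13b-2 on X, and its reads cannot be split between them.
miR-317-3p 18 nt: tGAACACAgctggtggta
miR-317-3p 21 nt: tGAACACAgctggtggtatcc
miR-317-3p 24 nt: tGAACACAgctggtggtatccagt
miR-9a-5p 20 nt: tCTTTGGTtatctagctgta
miR-9a-5p 23 nt: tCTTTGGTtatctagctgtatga
miR-998-5p 18 nt: aCTGAATTctcgtgggtc
miR-998-5p 22 nt: aCTGAATTctcgtgggtctgca
miR-219-5p 20 nt: tGATTGTCcaaacgcaattc
miR-219-5p 23 nt: tGATTGTCcaaacgcaattcttg
miR-13b-3p 18 nt: tATCACAGccattttgac
miR-13b-3p 19 nt: tATCACAGccattttgacg
miR-932-5p 19 nt: tCAATTCCgtagtgcattg
miR-981-3p 17 nt: tTCGTTGTcgacgaaac
miR-210-3p 17 nt: cTTGTGCGtgtgacagc

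Most isoforms kept the ratio they had at 3 d to within 2-fold. The age change lay within 2-fold for 425 of 528 isoforms (80.5%), with a median of -0.10, quartiles of -0.59 and 0.27, and a range of -4.39 to 3.53. Isoforms with a ratio at least 2-fold higher at 30 d are called higher here and those with one at least 2-fold lower are called lower, a threshold of size and not a test. There were 27 called higher, of 18 arms (5.11% of those compared), and 76 called lower, of 44 arms (14.4%). The counting interval lay above 0 for 135 isoforms and below 0 for 216, and it left out 0 for every one of the 27 and the 76.

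Within each age, oxidation moved shares by more than age moved the ratio. At 30 d, 134 isoforms (25.4%) had an oxidized share at least 2-fold above their not oxidized share and 114 (21.6%) one at least 2-fold below. At 3 d the numbers were 129 (24.4%) and 82 (15.5%). The scatter of both ratios shows the isoforms strung along the line of equality, with the shortest forms spread towards lower values at 30 d.

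**Figure D1:**
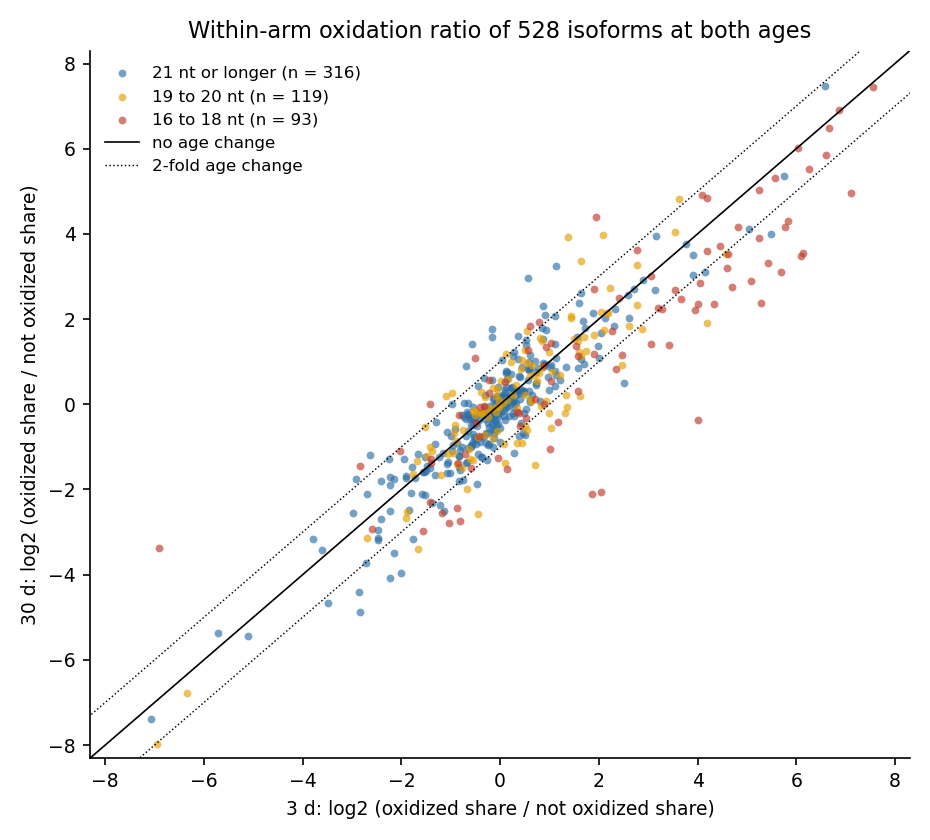
Each point is 1 of 528 isoforms. The horizontal axis is the log2 ratio of oxidized to not oxidized share within the arm at 3 d and the vertical axis the same at 30 d, with isoforms of 16 to 18 nt in red, 19 to 20 nt in orange and 21 nt or longer in blue. The solid line marks equal ratios and the dotted lines a 2-fold age change, beyond which lie 27 isoforms above and 76 below.

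The isoforms with a lower ratio at 30 d were mostly short relative to their arm. Length was compared with the arm's reference isoform, the one with the highest mean share in both not oxidized libraries. Among 206 isoforms 2 or more nt shorter than the reference, 13 (6.31%) were called higher and 55 (26.7%) called lower, with a median of -0.38. The medians were -0.01 for 102 isoforms 1 nt shorter, -0.10 for 119 of the same length, -0.13 for 64 that were 1 nt longer, and 0.10 for 37 that were 2 or more nt longer. In the order of those 4 classes, 4 (3.92%), 9 (7.56%), 6 (9.38%) and 2 (5.41%) isoforms were called lower. Called higher were 5 (4.90%), 2 (1.68%), 4 (6.25%) and 3 (8.11%). Over all isoforms 14.4% were lower and 5.11% higher. The median of the shortest class depends on the read minimum: asked of the not oxidized libraries only, it gave -0.16 for 403 isoforms, beside -0.17 for the class 1 nt longer. With an overlap of 18 bases to join reads into arms it was also -0.16, for 153 isoforms.

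Ends were also taken apart by position. The median was -0.07 for 104 reference isoforms, -0.05 for 243 isoforms with only a shorter 3′ end, -0.04 for 82 with only a longer 3′ end, and -0.32 for 99 with a shifted 5′ end. No reference isoform was called higher and 7 (6.73%) were called lower. Reference isoforms are mostly the largest of their arm, which limits how far their shares can rise. For a shorter 3′ end the counts were 16 (6.58%) higher and 44 (18.1%) lower, and for a longer one 5 (6.10%) and 7 (8.54%). For a shifted 5′ end they were 6 (6.06%) and 18 (18.2%), beside 5.11% and 14.4% over all isoforms. With 20 reads asked of the not oxidized libraries only, the medians for a longer 3′ end and a shifted 5′ end were both -0.14. Those for the reference and a shorter 3′ end were -0.06 and -0.04 in that setting. With 200 reads asked of the same libraries, a shifted 5′ end had -0.28 and a longer 3′ end -0.14. The reference had -0.06 and a shorter 3′ end 0.01. How far shifted 5′ ends lay below the other classes thus depended on the read minimum.

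Absolute length, a grouping chosen after the values were seen, showed where the lower values lay. The 93 isoforms of 16 to 18 nt, from 44 arms, had a median age change of -0.72, with 7 called higher and 36 (38.7%) called lower. The 435 isoforms of 19 nt or longer had a median of -0.05, with 20 higher and 40 (9.20%) lower. At both ages the short forms that passed were over-represented by oxidation, with a median log2 ratio of 1.34 at 30 d against 1.89 at 3 d. Rare forms reached 20 reads in the smallest library, 3 d oxidized, more readily where their share there was high. The read minimum can thus raise the ratios of the forms seen, most directly at 3 d.

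The read minimum also bears directly on the counts of short isoforms called higher and lower. The 3 d oxidized library held the lowest of the 4 counts for 395 of 528 isoforms, and 166 further sequences of these arms failed in that library alone, where a low count gives a high age change. When the minimum of 20 reads was asked of the not oxidized libraries only (a setting added after the data were seen), 57 of 187 isoforms of 16 to 18 nt were called lower and 43 called higher. With a minimum of 200 reads there, 12 of 38 were lower and 3 higher. Both settings added a pseudocount to each count, so the values of sequences with few or no oxidized reads depend on it. The share of short isoforms with a higher ratio at 30 d thus depends on how low counts of the 3 d oxidized library are treated.

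**Figure D2:**
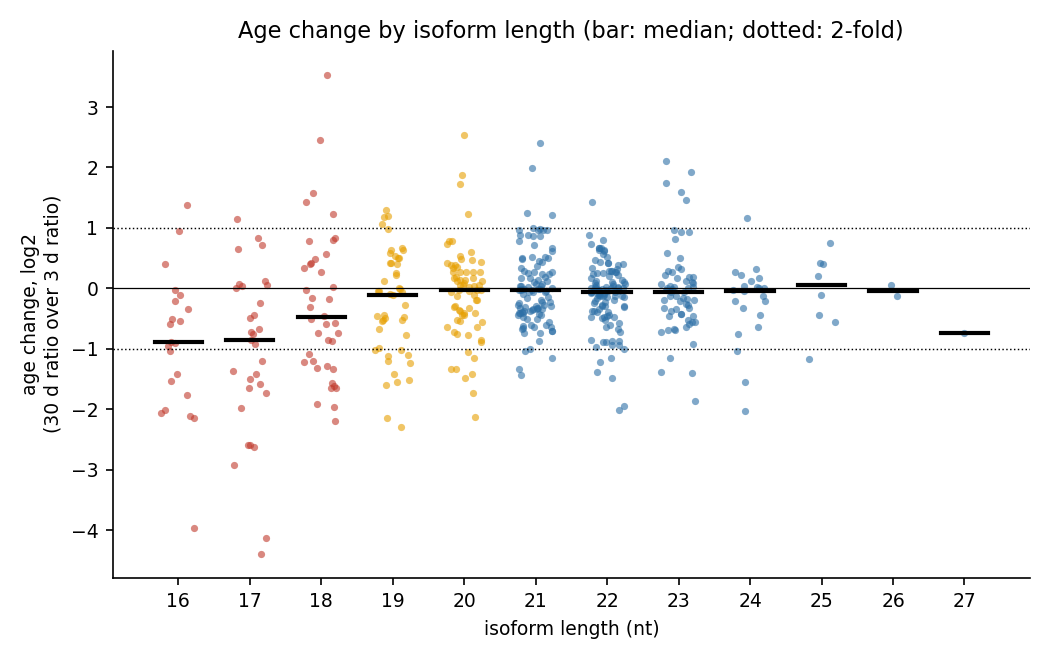
Each point is an isoform, placed by its length in nt and its age change on the log2 scale, with a bar at the median of each length and dotted lines at 2-fold. The medians lie at -0.89, -0.85 and -0.48 for 16, 17 and 18 nt and between -0.10 and -0.03 from 19 to 24 nt.

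The last base, also looked at after the values were seen, divided the short isoforms. Of 134 isoforms ending in C, 1 was called higher and 36 (26.9%) called lower. The numbers were 9 (10.1%) and 9 (10.1%) of 89 ending in A, and 9 (6.72%) and 14 (10.4%) of 134 ending in G. For ends in T they were 8 (4.68%) and 17 (9.94%) of 171, beside 5.11% higher and 14.4% lower over all isoforms. The 36 lower isoforms ending in C came from 28 arms.

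Within the ends in C, the lower values lay in the short forms. The 31 isoforms of 16 to 18 nt ending in C, from 24 arms, had a median of -1.51, with 20 (64.5%) called lower. The 1 called higher was miR-998-5p 18 nt, which also has the highest age change of all 528. The median log2 ratio of the 31 was 1.42 at 30 d and 3.28 at 3 d. The read minimum favours rare forms with a high share in the 3 d oxidized library. It therefore bears on these medians and on the share changes given below. The 62 short isoforms with another last base had a median of -0.29 and 16 that were called lower. For ends in C the median was -0.77 for 28 isoforms of 19 to 20 nt, 11 of them called lower, and -0.03 for 75 isoforms of 21 nt or longer, 5 of them lower. Both sides contributed in the short forms ending in C: their median share was lower at 30 d in the oxidized libraries, by a log2 change of -0.63, and higher in the not oxidized ones, by 0.73. With the minimum of 20 reads asked only of the not oxidized libraries, 30 of 52 such isoforms were called lower. In that setting 57 of 187 isoforms of 16 to 18 nt with any last base and 163 of 859 isoforms in all were lower. Of the 187, 43 were called higher, and the number called higher among the 52 ending in C was not counted.

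Examples printed above are miR-210-3p 17 nt and miR-981-3p 17 nt, both named after their values were seen. miR-210-3p 17 nt took 0.200% of its arm with and 0.0171% without oxidation at 30 d, against 0.702% with and 0.00998% without at 3 d. Its oxidized share was the lower of the ages at 30 d, and its age change was -2.59 (95% counting interval -3.02 to -2.16). miR-981-3p 17 nt took 2.03% and 0.393% at 30 d, with and without oxidation, and 3.22% and 0.0823% at 3 d, an age change of -2.92 (-3.35 to -2.50). Here the greater movement was in the not oxidized libraries.

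miR-34-5p, whose 3′ end is trimmed by Nibbler, showed an age change that differed between its 3′ ends by up to 3.76 log2 units. The 18-nt form took 56.0% of the arm with and 45.4% without oxidation at 30 d, against 39.1% with and 13.0% without at 3 d. It was thus the most abundant form in 3 of the 4 libraries and stood apart as low in the 3 d not oxidized library alone. Its share was higher at 30 d under both treatments, more so without oxidation, and its age change was -1.29 (95% interval -1.38 to -1.19).

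The longer ends of miR-34-5p moved the other way. The 23-nt form took 6.45% with and 2.14% without oxidation at 30 d, and 5.45% with and 6.08% without at 3 d. The not oxidized 30 d library was the low one, and the age change was 1.75 (1.46 to 2.04). The 22-nt form gave 0.52 (0.33 to 0.71) and the 24-nt form 0.23 (-0.15 to 0.60).

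The 21-nt form, the reference, took 18.9% with and 39.5% without oxidation at 30 d, and 27.7% with and 49.0% without at 3 d. It was under-represented after oxidation at both ages, and its age change was -0.24 (-0.36 to -0.13). The 16-nt form, at 2.0% and 0.758% at 30 d and 3.92% and 0.368% at 3 d (with and without oxidation in each), had an age change of -2.02 (-2.45 to -1.58). The 17-nt form had -1.98 (-2.83 to -1.14) on 26 reads with and 24 without oxidation at 3 d.

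The other members of the miR-34 cluster, miR-277-3p and miR-317-3p, come from the same region of 3R. miR-277-3p, known in flies to act on branched-chain amino acid breakdown, had its 22-nt reference at 69.5% with and 55.5% without oxidation at 30 d and 63.2% with and 58.6% without at 3 d. These shares were close to each other, and the age change was 0.22 (0.20 to 0.23). Its 19-nt form was the one past 2-fold, at -1.41 (-1.68 to -1.15), with 1.08% and 1.12% at 30 d and 0.456% and 0.178% at 3 d. The 20-nt form took 7.54% with and 13.0% without oxidation at 30 d, and 1.98% with and 2.19% without at 3 d. Its share was higher at 30 d under both treatments, and its age change was -0.65 (-0.77 to -0.53).

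miR-317-3p held a short form with a higher ratio at 30 d. Its 18-nt isoform took 3.34% with and 0.158% without oxidation at 30 d, and 0.165% with and 0.0432% without at 3 d. The 30 d oxidized library stood far above the other 3, and the age change was 2.46 (2.06 to 2.86). Its 1-nt neighbours did not share that size: the 17-nt form had 0.65 (0.13 to 1.17) and the 19-nt form 0.59 (0.29 to 0.90). The 21-nt reference had 0.14 (0.11 to 0.17) and the 24-nt form -0.44 (-0.47 to -0.41). Over the 24 isoforms of the cluster the median was 0.10, with 2 called higher and 4 called lower, beside -0.10 and 5.11% and 14.4% over all isoforms.

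In the let-7 complex, 0 of 17 isoforms were called higher and 7 (41.2%) called lower, with a median of -0.49, beside 5.11% and 14.4% and a median of -0.10 over all isoforms. Of those 7 isoforms, 5 belong to miR-125-5p and 2 to let-7-5p, and none to miR-100-5p. miR-125-5p 21 nt took 87.1% with and 27.1% without oxidation at 30 d, and 71.7% with and 17.4% without at 3 d. It dominated both oxidized libraries, more so at 30 d. Its age change was still -0.36 (-0.42 to -0.30), because its share without oxidation was also higher at 30 d, by a larger factor. A share of 71.7% leaves limited room to rise. On odds, the form against the rest of its arm, these shares give an age change of the opposite sign.

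The ends beyond 21 nt of miR-125-5p were the counterpart. The 22-nt form took 7.06% with and 35.4% without oxidation at 30 d, and 21.8% with and 57.1% without at 3 d, an age change of -0.94 (-1.01 to -0.86). The 24-nt form took 0.625% and 18.2% at 30 d, and 1.76% and 12.5% at 3 d, with and without oxidation. It was rare in both oxidized libraries and frequent in both others, and its age change was -2.04 (-2.31 to -1.76). The 23-nt form had -1.86 (-2.42 to -1.30) and the 25-nt form -1.16 (-1.82 to -0.51). The forms of 19 and 20 nt, at -1.12 (-1.52 to -0.72) and -1.33 (-1.68 to -0.98), were also lower. On shares, the 21-nt form thus had the age change nearest to 0 in this arm.

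let-7-5p, a regulator of developmental timing, had its 21-nt reference at 46.9% with and 53.3% without oxidation at 30 d, and 55.3% with and 64.7% without at 3 d, an age change of 0.05 (-0.01 to 0.10). Its 22-nt form took 12.9% with and 21.2% without oxidation at 30 d, and 21.7% with and 15.3% without at 3 d. The order of the treatments was opposite at the ages, and the age change was -1.22 (-1.34 to -1.11). The 19-nt form took 25.0% of the arm in the 30 d oxidized library, against 5.93% in the 30 d not oxidized one, and 9.53% with and 3.52% without oxidation at 3 d. It was highest in the 30 d oxidized library, and its age change was 0.64 (0.47 to 0.81). The 18-nt form had -1.23 (-1.76 to -0.69) and the 17-nt form 0.72 (0.32 to 1.13), so neighbouring ends differed in sign. miR-100-5p was steadier: its 20-nt form took 86.9% and 59.1% at 30 d and 82.3% and 48.7% at 3 d, with and without oxidation, and had an age change of -0.20 (-0.29 to -0.11).

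**Figure D3:**
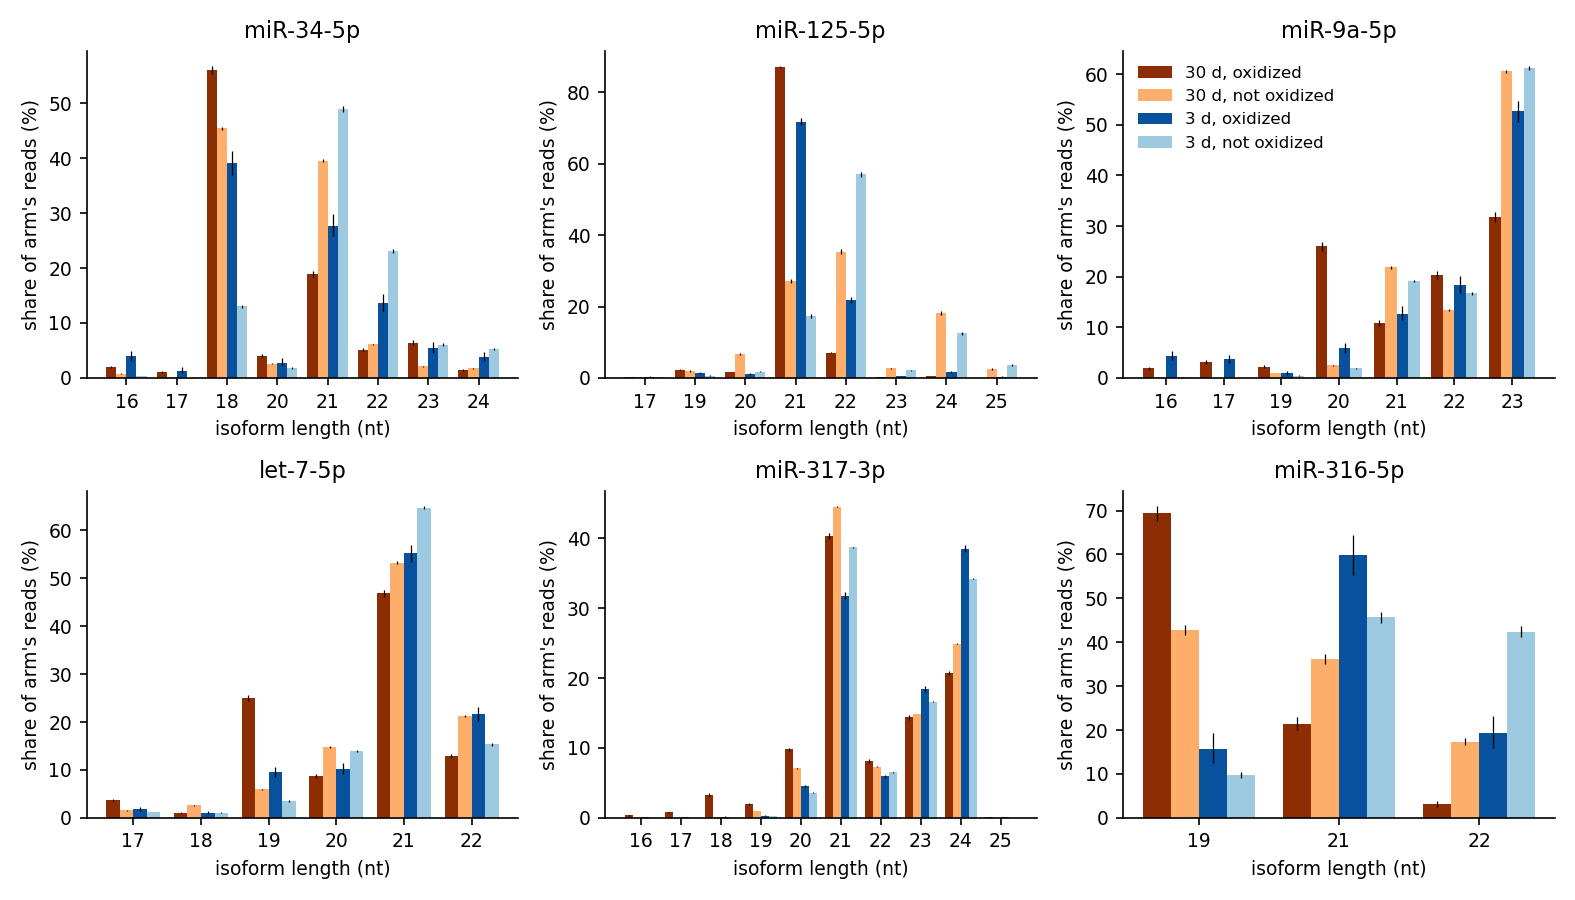
Bars give the share of the arm's reads (%) by isoform length in nt for isoforms with the reference 5′ end, in the order 30 d oxidized, 30 d not oxidized, 3 d oxidized and 3 d not oxidized, with exact 95% binomial intervals. In miR-125-5p the 21-nt form takes 87.1% and 71.7% in the oxidized libraries, and in miR-9a-5p the 20-nt form takes 26.0% in the 30 d oxidized library against 5.87% or less in the others.

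miR-9a-5p, which in flies limits the number of sensory organ precursors, had one end with a high share in a single library. Its 20-nt form took 26.0% with and 2.53% without oxidation at 30 d, and 5.87% with and 1.88% without at 3 d. The 30 d oxidized library alone was high, and the age change was 1.72 (1.46 to 1.98). The 23-nt reference took 31.7% with and 60.5% without oxidation at 30 d, and 52.7% with and 61.2% without at 3 d, so that it was low in the same library, at -0.72 (-0.79 to -0.64). The forms of 21 and 22 nt between them had -0.42 (-0.61 to -0.24) and 0.47 (0.33 to 0.61). The 16-nt form, which ends in C, had -1.41 (-1.88 to -0.94).

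miR-219-5p is conserved and neural in vertebrates. Its 23-nt form took 38.8% with and 20.8% without oxidation at 30 d, and 24.8% with and 40.1% without at 3 d. Its 20-nt form took 31.1% with and 47.2% without at 30 d, and 40.6% with and 27.9% without at 3 d. The treatments stood in opposite order at the ages for both forms and in opposite directions to each other, with age changes of 1.59 (1.16 to 2.03) and -1.14 (-1.49 to -0.80). The arm is rare, and the 23-nt form rests on 41 reads in the 3 d oxidized library. miR-1000-5p 21 nt, of another brain miRNA, reached 1.0 (0.90 to 1.10) through its not oxidized share, which was 13.2% at 30 d and 28.8% at 3 d, against oxidized shares of 27.2% and 29.6% at those ages. Over the 47 isoforms of the 7 brain arms of 8 listed, the median was -0.41, with 6 (12.8%) called higher and 10 (21.3%) called lower, beside -0.10, 5.11% and 14.4% over all isoforms.

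miR-998-5p had the highest age change of all, 3.53 (3.07 to 4.0), in its 18-nt form. This form took 0.451% with and 4.68% without oxidation at 30 d, and 0.130% with and 15.6% without at 3 d. It was rare in both oxidized libraries, and its ratio was below 0 at both ages, at -3.37 at 30 d and -6.91 at 3 d. The 19-nt form had 0.99 (0.78 to 1.20) and the 22-nt reference, with 78.6%, 76.8%, 91.1% and 73.0% in the order of the groups above, had -0.29 (-0.32 to -0.25).

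miR-14-3p, which in flies acts on cell survival and fat metabolism, had the next highest value among isoforms with 5% or more of their arm in some library. Its 21-nt form took 7.18% with and 0.926% without oxidation at 30 d, and 3.83% with and 2.60% without at 3 d. The oxidized share was higher and the not oxidized share lower at 30 d, and the age change was 2.40 (2.30 to 2.49). The 20-nt form held 82.0% to 94.3% of the arm in every library and had -0.10 (-0.11 to -0.09). Of its shorter forms with the same 5′ end, those of 19, 18 and 16 nt were called lower, at -1.55 (-1.68 to -1.42), -1.96 (-2.35 to -1.56) and -2.15 (-2.78 to -1.52), while that of 17 nt had -0.72 (-1.18 to -0.27). The 19-nt form starting 1 nt downstream was called higher, at 1.20 (0.92 to 1.48). miR-8-5p 21 nt, the minor arm of a miRNA known for growth control in flies, took 13.1% with and 4.90% without oxidation at 30 d, and 3.09% with and 4.60% without at 3 d, an age change of 2.0 (1.78 to 2.22).

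Other isoforms at the top among those with 5% or more of their arm in some library were miR-2a-2-5p 18 nt at 1.43 (1.17 to 1.69), miR-210-3p 21 nt with a 5′ end 1 nt downstream at 1.21 (1.15 to 1.26), an arm taken as miR-2a-3p at 19 nt with 1.06 (0.67 to 1.46) and miR-927-3p 21 nt at 0.98 (0.77 to 1.18). miR-927-3p 21 nt took 48.4% with and 17.1% without oxidation at 30 d, and 27.5% with and 19.1% without at 3 d. The not oxidized shares were alike and the oxidized share was the one that differed. The reads taken as miR-2a-3p start downstream of the start known for that miRNA, so this name, its seed and its place among the K box arms are uncertain.

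At the bottom of the same list stood miR-278-3p 18 nt at -2.20 (-2.50 to -1.89), with 2.69% and 0.363% at 30 d and 6.90% and 0.203% at 3 d, with and without oxidation. It was over-represented by oxidation at both ages, less so at 30 d. miR-284-3p 22 nt had -1.94 (-2.27 to -1.62). It took 3.02% with and 46.7% without oxidation at 30 d, and 13.4% with and 53.8% without at 3 d, while the 21-nt form of the same arm, named after its values were seen, had 0.08 (SE 0.04).

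miR-932-5p, from an intron of the neuroligin gene Nlg2, and miR-13b-3p, of the K box family that targets Notch pathway genes, each had a 19-nt form with a lower ratio at 30 d. miR-932-5p 19 nt took 19.8% with and 29.2% without oxidation at 30 d, and 10.2% with and 4.98% without at 3 d, an age change of -1.60 (-1.89 to -1.31). miR-13b-3p 19 nt took 24.3% with and 28.0% without at 30 d, and 16.7% with and 6.72% without at 3 d, an age change of -1.52 (-1.77 to -1.26). In both, all 30 d shares exceeded all 3 d shares, and the low library was the not oxidized one at 3 d. Over the 32 isoforms of 5 of 8 listed K box arms the median was 0.10, with 4 (12.5%) called higher and 3 (9.38%) called lower, beside the same values over all isoforms of -0.10, 5.11% and 14.4%. These arms are near-identical over their 5′ parts, and short reads among them are the least certain.

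Further low values came from miR-276-5p. Its 18-nt form had -1.92 (-2.43 to -1.41), with 1.31% and 8.67% at 30 d and 1.95% and 3.42% at 3 d, with and without oxidation, and its 17-nt form -1.41 (-1.92 to -0.91). miR-279-3p 17 nt, of a miRNA that in flies restricts olfactory neuron fates, had -1.51 (-1.83 to -1.18). miR-981-5p 22 nt with a 5′ end 1 nt upstream took 28.7% with and 1.79% without oxidation at 30 d, and 48.0% with and 1.07% without at 3 d, an age change of -1.48 (-1.95 to -1.02). An arm with no catalogue name matched had -2.13 (-2.68 to -1.59) for its 20-nt form, at 45 reads in the 30 d oxidized library, and another had -1.43 (-2.09 to -0.77) at 21 nt.

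Isoforms with a shifted 5′ end have another seed. In miR-193-5p the 20-nt form starting 2 nt downstream took 2.82% with and 29.6% without oxidation at 30 d, and 9.75% with and 30.8% without at 3 d, an age change of -1.73 (-2.01 to -1.46). The 17-nt form with that start had the lowest value of all 528, -4.39 (SE 0.39), from 52, 136, 48 and 38 reads in the order of the groups above, and is named after its value was seen. In miR-210-3p, 3 forms starting 1 nt downstream, of 21, 22 and 23 nt, had age changes of 1.21, 1.42 and 2.11, while the 21-nt reference had -0.63 (-0.64 to -0.61). The 20-nt form with that start took 34.2% with and 17.1% without oxidation at 30 d, and 23.5% with and 20.3% without at 3 d, so this form was over-represented by oxidation more at 30 d.

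For the isoforms past 2-fold, both treatments contributed. Of the 76 lower ones, the oxidized share was lower at 30 d in 57 and the not oxidized share higher in 66. The oxidized share moved more in 37 and the not oxidized share in 39. Of the 27 higher ones, the oxidized share was higher at 30 d in 26, and it moved more than the not oxidized share in 20. The ratio was below 0 at 30 d and above 0 at 3 d in 20 of the 76, and above 0 at 30 d and below 0 at 3 d in 8 of the 27.

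**Figure D4:**
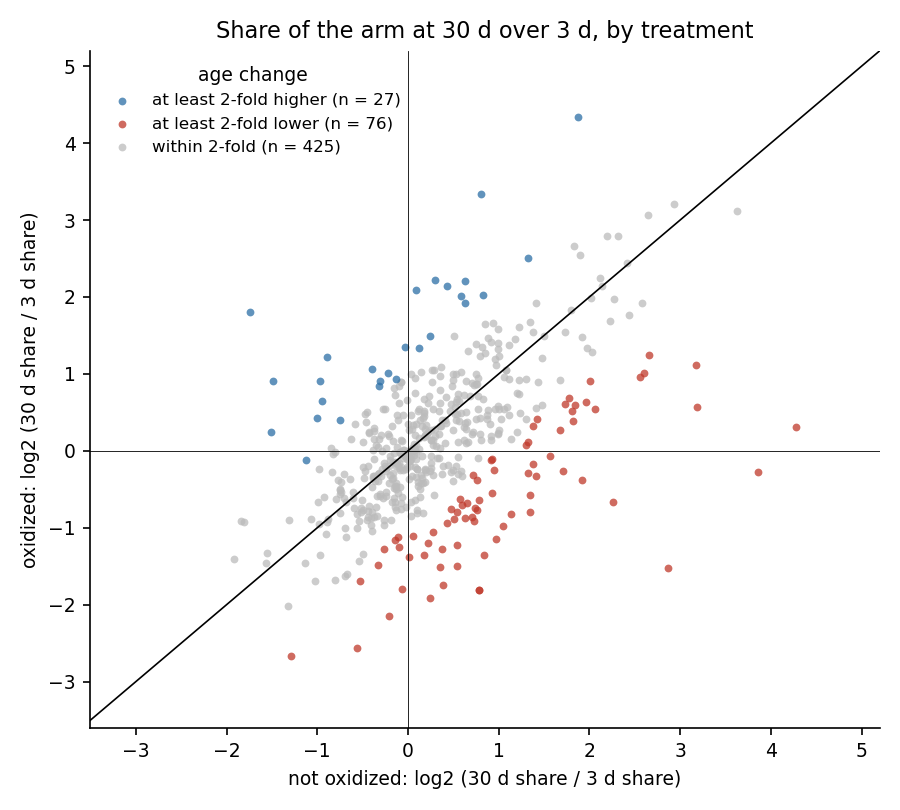
Each point is an isoform. The horizontal axis is the log2 change of its share of the arm at 30 d over 3 d in the not oxidized libraries and the vertical axis the same in the oxidized libraries; blue marks 27 isoforms called higher in age change, red 76 called lower and grey 425 within 2-fold. Most blue points lie above 0 on the vertical axis (26 of 27), while red points lie to the right of 0 (66 of 76) and below it (57 of 76).

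Isoforms of one arm often differed from each other. Of 95 arms with 2 or more isoforms, 31 (32.6%) spanned at least 4-fold between their highest and lowest age change, the median span was 1.45, and 10 arms held isoforms past 2-fold in both directions. In 43 arms all isoforms lay within 2-fold. The widest spans were 6.67 in miR-8-3p, 4.70 in miR-210-3p, 4.55 in miR-14-3p and 3.99 in miR-193-5p. In the first, with 16 isoforms, the extremes were rare forms with shifted 5′ ends (each at most 0.180% of the arm in any library), while the 23-nt reference had -0.06 (-0.07 to -0.06).

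The reference isoforms of the 10 arms with most reads all lay within 2-fold on shares. These forms hold a large part of their arm, which limits how far a share can rise. On odds, the form against the rest of its arm, miR-210-3p 21 nt and miR-14-3p 20 nt were lower by more than 2-fold. miR-263a-5p 24 nt took 82.6% with and 68.2% without oxidation at 30 d, and 86.2% with and 61.4% without at 3 d, an age change of -0.21 (-0.22 to -0.21). miR-284-5p 26 nt had 0.06 (0.04 to 0.08) and miR-33-5p 21 nt 0.07 (0.07 to 0.07). miR-276a-3p and miR-276b-3p, close relatives of each other, both had a lower 22-nt share in the 30 d oxidized library, and their age changes were -0.28 (-0.29 to -0.28) and -0.38 (-0.39 to -0.37). The 21-nt reference of miR-210-3p, at -0.63, and bantam-3p lay below the lower quartile of all isoforms. The growth regulator bantam-3p had the lowest value among these at 23 nt, -0.70 (-0.72 to -0.68), with 26.4% and 50.9% at 30 d and 51.4% and 61.1% at 3 d, with and without oxidation.

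The most frequent isoform was the same in all 4 libraries in 65 of 106 arms. Oxidized and not oxidized libraries differed in it for 32 arms at 30 d and 27 arms at 3 d, of which 12 differed only at 30 d and 7 only at 3 d. Between the ages it differed in 13 arms among the oxidized libraries and 15 among the not oxidized ones. The leading form was shorter at 30 d in 11 of those 13 arms with oxidation and in 13 of those 15 arms without it.

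Some of these exchanges are large. miR-276-5p was led by a 19-nt form in the 30 d oxidized library (59.0%), against a 22-nt form in the other 3. miR-981-3p was led by 19 nt in the 30 d oxidized library (30.8%) and by 22 nt in the others. miR-316-5p was led by 19 nt at 30 d under both treatments (69.4% with and 42.7% without oxidation) and by 21 nt at 3 d under both (60.0% with and 45.7% without). Its 19-nt form therefore had an age change of 0.00 (SE 0.17) in spite of a share 2.14 log2 units higher at 30 d under each treatment. These arms were picked after their values were seen.

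Mean read length was also compared over whole arms. The difference in mean read length between oxidized and not oxidized libraries changed with age by a median of -0.021 nt over 106 arms, with 48 above 0 and 58 below. It was at least 0.5 nt higher at 30 d in 6 arms and at least 0.5 nt lower in 3. Among the 62 arms with 1000 or more reads in each library these were 2 and 1.

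miR-34-5p had the highest of these 62. Its mean length was 19.23 nt with and 19.69 nt without oxidation at 30 d, and 19.86 nt with and 21.06 nt without at 3 d, a change of 0.74 nt (0.64 to 0.84). Reads were shorter at 30 d under both treatments, by more without oxidation than with it, so the oxidized and not oxidized means lay closer together at 30 d. miR-276-5p had 0.53 nt (0.44 to 0.63), miR-278-3p 0.27 nt, and 0.23 nt was reached by each of miR-278-5p and miR-305-5p.

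At the other end stood miR-998-5p at -0.51 nt, miR-9a-5p at -0.47 nt, miR-317-3p at -0.46 nt, let-7-5p at -0.44 nt and miR-276b-3p at -0.41 nt. In miR-9a-5p the means were 21.23 nt with and 22.28 nt without oxidation at 30 d, and 21.77 nt with and 22.35 nt without at 3 d. Here the oxidized reads were the ones that were shorter at 30 d.

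**Figure D5:**
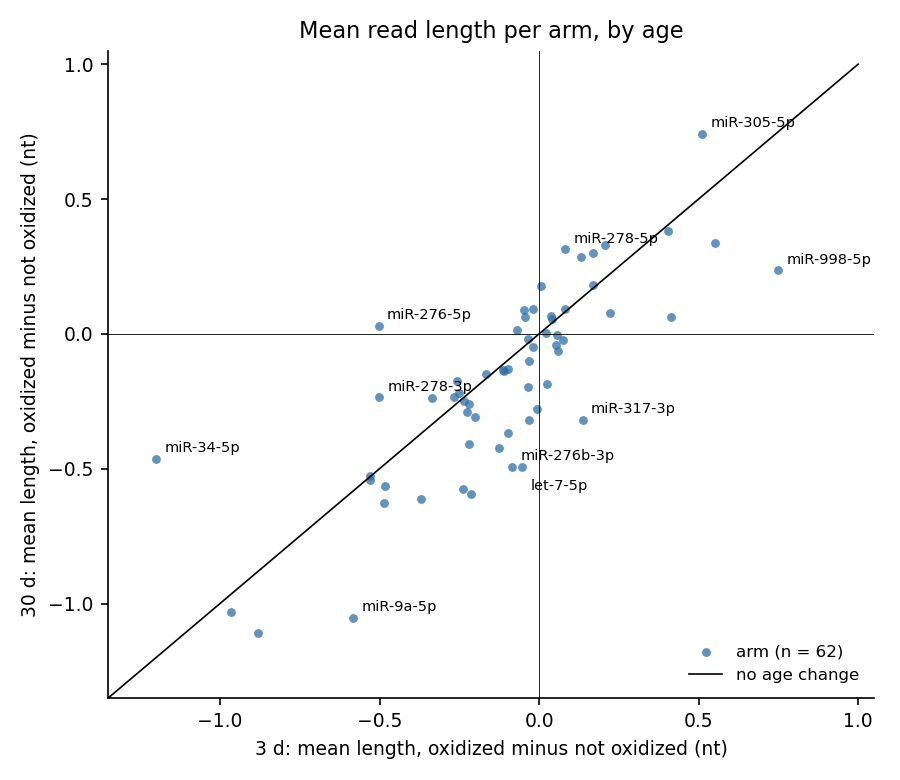
Each of 62 points is an arm with 1000 or more reads in each library. The horizontal axis is the mean read length in the oxidized minus the not oxidized library at 3 d and the vertical axis the same at 30 d, both in nt; the line marks equality, and the 5 arms highest and 5 lowest in the age change are named. miR-34-5p lies above the line by 0.74 nt and miR-998-5p below it by 0.51 nt.

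Over 59 isoforms of 6 arms of a list of 8 reported or recalled as trimmed at the 3′ end, the median age change was 0.00, with 4 (6.78%) called higher and 8 (13.6%) called lower, beside 5.11% and 14.4% over all isoforms. Apart from miR-34-5p, membership of this list is not certain.

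The read minimum sets which isoforms are seen. Of 3368 sequences in the 106 arms, 2840 had fewer than 20 reads in some library. The 14 isoforms with a lowest count of 20, just inside, had age changes of -2.14 to 2.54 with a median of -0.62, and 9 with a lowest count of 19, just outside, had -2.27 to 0.65 with a median of -0.81. The counting SE of the age change had a median of 0.15 and a highest value of 0.56 log2 units. The exact Clopper-Pearson 95% intervals of the shares reached a median of 0.322, 0.196, 0.567 and 0.200 percentage points from the share in the 30 d oxidized, 30 d not oxidized, 3 d oxidized and 3 d not oxidized library.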

How the data were processed

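Per the labels, total RNA of heads was prepared, oxidized where stated, and made into TruSeq small RNA libraries. The submitters' processing notes name CASAVA 1.8.2, Bowtie and the build dm3; how adapters were removed is not stated there. The authors deposited 1 table per library, with each read sequence and its raw count, without miRNA names. Some lines repeat (65 to 165 sequences in each table, always with an equal count), and each such sequence was counted once.

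Sequences were grouped into arms where they overlapped identically over 15 nt or more within a span of 34 nt. Left out were 79 that fitted 2 arms, with no more than 0.00643% of the reads of any library, and 14 over 30 nt. Of the 106 arms used, 91 were named from general knowledge of the public miRNA catalogue by their first 9 bases; 15 stayed unnamed, with 42 isoforms. Of 95 named hairpin arms compared with the BDGP6 annotation, 79 (83.2%) had a reference isoform within 1 nt of the annotated length. Hairpin coordinates come from that annotation by gene name, not from dm3.

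Shares were exact counts over the arm's reads, so no scaling between libraries was needed, and no pseudocount was added to them. A pseudocount was added to each count on the odds scale and where the read minimum was asked of the not oxidized libraries only. Intervals on shares are exact Clopper-Pearson; those on the age change use the multinomial variance of log shares. Reads carry no molecular identifiers, so intervals cover counting error only. No test was made, with 1 library per group. Python 3.11.15, NumPy 2.4.6, SciPy 1.17.1 and Matplotlib 3.10.9 were used, and the calculation was tested on simulated data.

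The members, the miRNA lists, the filters and the rule for named isoforms were chosen with earlier results of these data known. The rule names, among isoforms with 5% or more of their arm in a library, the 12 highest and 12 lowest age changes and every isoform of the 6 arms with the widest span among them; also all isoforms of miR-34-5p, miR-277-3p, miR-317-3p and the let-7 complex, the reference isoform of the 10 arms with most reads, and the 5 arms at each end in mean length change, 93 isoforms in all. Alternatives varied the read minimum, the overlap, the denominator, the scale and the reference isoform.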

Additional observations from a re-analysis of the deposited data

Results flagged for a closer look

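Of 93 named isoforms, 14 stood on opposite sides of 0 at the ages, with the oxidized share above the not oxidized share at one age and below it at the other, in the only library of each group. The difference between the ages was not tested. In 6 of the 14 the age change was past 2-fold and the counting intervals of both ratios left out 0. Of these, the age change was 2.0 for miR-8-5p 21 nt, with log2 ratios of 1.42 at 30 d and -0.57 at 3 d. It was 1.59 for miR-219-5p 23 nt (0.90 at 30 d and -0.69 at 3 d) and -1.14 for miR-219-5p 20 nt (-0.60 at 30 d and 0.54 at 3 d), in the same arm. It was -1.52 for miR-13b-3p 19 nt (-0.20 at 30 d and 1.31 at 3 d), -1.60 for miR-932-5p 19 nt (-0.56 at 30 d and 1.04 at 3 d) and -1.22 for let-7-5p 22 nt (-0.72 at 30 d and 0.50 at 3 d).

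In the other 8 the age change was within 2-fold or the counting interval of a ratio reached 0. The age change was 1.75 for miR-34-5p 23 nt (1.59 at 30 d and -0.16 at 3 d), -1.41 for miR-277-3p 19 nt (-0.06 at 30 d and 1.35 at 3 d) and 1.43 for miR-2a-2-5p 18 nt (0.01 at 30 d and -1.42 at 3 d). It was -1.43 for the 21-nt form of an arm with no name matched (-1.15 at 30 d and 0.28 at 3 d), and 0.97 for miR-277-3p 21 nt with a 5′ end 1 nt downstream, which was at -0.97 at 3 d. In miR-317-3p it was 0.28 at 22 nt, -0.20 at 23 nt and -0.44 at 24 nt.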

How the results depend on the processing

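No paired analysis was possible because each group has 1 library, and for the same reason no library could be left out. For 89 named isoforms, 920 values under the alternatives were compared with the value reported. Of the 12 alternatives, the one that changed the reference isoform was not applied to these isoforms. Of the 920 values, 815 lay within counting error of the value reported, 102 moved further, and 3 changed sign from a value past 2-fold. The minimums of 50 and 10 reads in each library and of 1000 reads per arm only decide which isoforms are kept. They cannot change the value of a kept isoform, so agreement under them was fixed in advance. The minimums in the not oxidized libraries alone changed such a value only through a pseudocount of 0.5 on each count. A change of sign from a value within 2-fold was not counted apart. Outside the RPM scale 797 of 831 lay within counting error, with the settings that could not change a value included. Shares remove a change of the whole arm, and RPM, scaled to each library's total, keeps it: on RPM the median over all isoforms was -0.88 in place of -0.10. The 3 past 2-fold that changed sign did so on RPM. They were miR-8-5p 21 nt at -0.092, miR-2a-2-5p 18 nt at -0.34, and miR-14-3p 19 nt with a 5′ end 1 nt downstream at -0.078. On RPM, 6 isoforms were called higher and 232 called lower in age change, 232 lower at 30 d, and 213 higher and 193 lower at 3 d; of 16 to 18 nt, 1 was higher and 62 lower. Its medians by length, short to long, were -0.91, -0.64, -1.02, -0.97 and -0.77, and by ends -0.99 for the reference, -0.79 for a shorter and -0.93 for a longer 3′ end, and -0.97 for a shifted 5′ end. On odds, the same-length median was -0.24 and the reference median -0.23. With 50 reads in each library, 17 of 388 were higher and 48 lower, 54 were lower at 3 d, and 22 of 49 of 16 to 18 nt and 13 of 20 of these ending in C were lower; with 10 reads, 42 of 650 were higher. With an overlap of 18 bases, 13 of 51 of 16 to 18 nt and 6 of 18 ending in C were lower; by construction reads of 16 to 17 nt cannot join an arm there, and 11 of the 51 and 6 of the 18 were alone in their arm with an age change of 0, so these counts say nothing on the shortest forms. Chosen after seeing the data, a minimum of 20 reads in the not oxidized libraries alone gave 112 higher and 163 lower of 859, spans of 4-fold in 68 of 100 arms, and 43 higher and 57 lower of 187 of 16 to 18 nt; a minimum of 200 there gave 3 higher and 12 lower of 38, and 6 of 10 ending in C lower. With 1000 reads per arm, mean length was 0.5 nt higher in 2 and lower in 1 of 62 arms. The cause of the other differences was not tested. The 3 d oxidized library, with 2091252 reads, limits which rare isoforms can be compared.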
